A study of Homo sapiens with 4 samples.

Results

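The genes described here are 33 genes of homologous recombination, the Fanconi pathway and the ATM and ATR checkpoint, out of 57773 genes in the authors' deposited table. They were chosen by name, as the rows whose symbol equals a listed member, and every one of the 33 was found with a fold change. The list itself was made with earlier results of these data known. The table sets 2 libraries from cells given 1 µM OSSL_325096, a compound that the labels name by its code alone, against 2 libraries from cells given the solvent DMSO. Each treatment has 1 library of KMS12PE and 1 of KMS11, both established human multiple myeloma lines grown in culture, with no genetic change stated for either. A line alone therefore has no replicate, and the length of exposure is not stated. The table holds 1 fold change, 1 p-value and 1 mean for each gene over both lines, so values of single libraries could not be given. The mean belongs to whichever treatment has more transcript, in RPKM, a read count corrected for transcript length and library size. A log2 fold change below 0 means less transcript with OSSL_325096; this direction is read from the order of the treatments in the table's title. The depth of the libraries is unknown. In such bulk RNA, fewer cells in one phase or state and less RNA per cell cannot be told apart.

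Homologous recombination repairs DNA double-strand breaks by copying an intact sister chromatid. The MRN complex (MRE11, RAD50 and NBN) senses the break, nucleases trim its ends, and BRCA1, PALB2 and BRCA2 load a recombinase onto the exposed strand. The Fanconi pathway unhooks crosslinks between DNA strands: a core ubiquitin ligase marks FANCD2 and FANCI, which recruit nucleases and recombination proteins. ATM and ATR are the kinases that signal breaks and stalled forks, through CHEK2 and CHEK1. Many of these genes are most active in cells that replicate DNA, and a plasma cell tumour keeps dividing while it secretes antibody.

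As a check of the labelled cell type, plasma cell genes were abundant in the authors' deposited table, with 180 RPKM for XBP1, 174 for IRF4, 150 for TNFRSF17 (BCMA), 89.7 for SDC1 (CD138), 20.9 for PRDM1 and 11.4 for CD38. The T cell genes CD2, CD3D, CD3E and CD3G reached at most 0.130 RPKM there, and the monocyte genes CD14, LYZ and CSF1R at most 0.0913. Of 3 epithelial genes, KRT8 and KRT18 were at 0.0425 and 0.445 RPKM in the authors' deposited table, and EPCAM was at 15.8.

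The 33 genes leaned to lower transcript levels with OSSL_325096, by small amounts. Of the 33, 28 had a log2 fold change below 0 in the authors' deposited table, beside 48.5% of all 23130 genes with a fold change. Among the 30 members that reached 1 RPKM, 25 were below 0, beside 49.0% of the 11324 such genes. The median of those 30 was -0.19 (quartiles -0.38 and -0.09), against 0.01 (quartiles -0.21 and 0.22) over the 11324 genes. The sizes were modest: only BRIP1 was at least 1.5-fold lower, where 4.95% of genes were, and 0 members were at least 1.5-fold higher, where another 4.95% were. At a smaller size, 8 of the 30 were at least 20% lower (BRIP1, RBBP8, FANCL, BARD1, PALB2, FANCI, EXO1 and RAD54B), beside 15.2% of genes, and CHEK2 was at least 25% higher, beside 16.4%. These values moved with GC content: after removal of the trend with level, length and GC content the median was -0.12 and 0 members were at least 1.5-fold lower, and relative to genes of like GC content the median was -0.11, again with 0. Among genes spread over GC content as the members are, 64.1% were below 0. With a minimum of 5 RPKM, which BRIP1 does not reach, 0 members were at least 1.5-fold lower.

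No member passed a test. By the authors' own test, 0 of the 11324 genes (0%) had a deposited false discovery rate under 0.05, and before adjustment 5 of these genes and 0 of the 33 members had a p-value under 0.05. The members' unadjusted values ran from 0.570 for RBBP8 to 0.988 for MRE11A in the authors' deposited table. An implied standard error (SE), the absolute log2 fold change over the normal quantile of its p-value, was 1.07 at the median of the 33 members and 1.10 over the 11324 genes. Since the 2 libraries of a treatment are different lines, these SEs and their intervals hold the difference between KMS12PE and KMS11 unless the authors' test paired the lines, which is not stated. Every member's fold change was smaller than its implied SE, and only 0.645% of the 11324 genes had one larger than its implied SE. The implied SEs were thus wide beside the spread of the fold changes themselves, whose quartiles over the 11324 genes were -0.21 and 0.22. The reason for this width was not tested. A gap between 2 genes that is smaller than an implied SE therefore says little either way. The largest ratio among the members was 0.568, for RBBP8. The implied 95% interval of each of the 33 included 0, and also a 2-fold difference in either direction, so neither a change nor its absence was shown for any single gene. The counts and medians of the list carry no test, since its genes were chosen with earlier results of these data known and share the same 4 libraries.

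**Figure D1:**
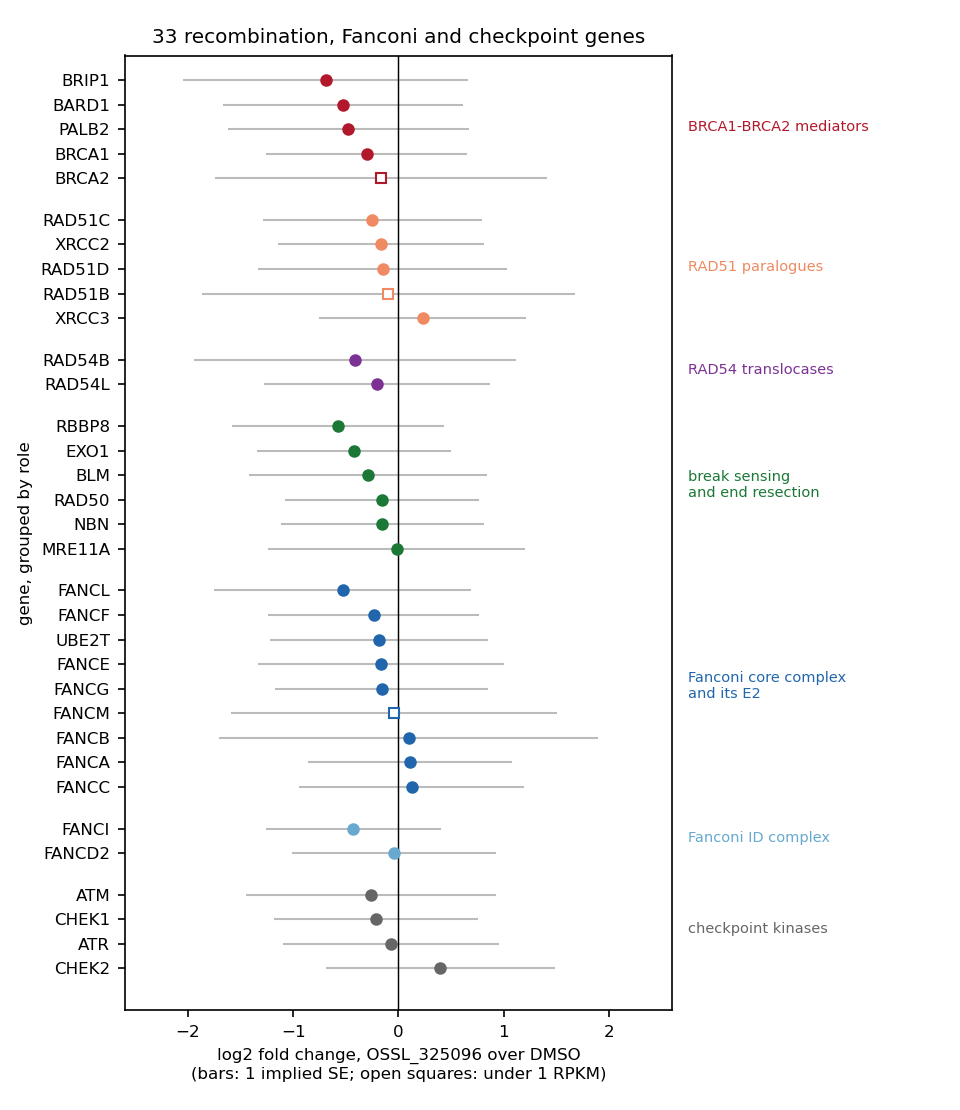
Deposited log2 fold changes with OSSL_325096 relative to DMSO (horizontal axis) of the 33 genes, grouped and coloured by role; bars are 1 implied SE, and open squares are the 3 genes under 1 RPKM. The points lie between -0.69 (BRIP1) and 0.40 (CHEK2), and every bar crosses 0.

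The start regions of the 2 lowest and the 2 highest members are shown to see what letters the ends of the ranking share. They are the 250 bases before the start of transcription, from RefSeq on GRCh38.p14, 5′ to 3′ on the strand of the gene. Capitals mark CCAAT, the box that the factor NF-Y reads, or TTTGAA, the core of a cell cycle element, on either strand (ATTGG and TTCAAA are their reverse complements). BRIP1 lies at chr17:61863529-61863778, minus strand, and RBBP8 at chr18:22933078-22933327, plus strand. CHEK2 lies at chr22:28741821-28742070, minus strand, and XRCC3 at chr14:103715452-103715701, minus strand.
BRIP1: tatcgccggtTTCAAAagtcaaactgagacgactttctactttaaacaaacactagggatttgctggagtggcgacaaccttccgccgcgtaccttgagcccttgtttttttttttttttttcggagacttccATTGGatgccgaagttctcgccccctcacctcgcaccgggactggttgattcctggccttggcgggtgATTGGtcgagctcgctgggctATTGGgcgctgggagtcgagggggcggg
RBBP8: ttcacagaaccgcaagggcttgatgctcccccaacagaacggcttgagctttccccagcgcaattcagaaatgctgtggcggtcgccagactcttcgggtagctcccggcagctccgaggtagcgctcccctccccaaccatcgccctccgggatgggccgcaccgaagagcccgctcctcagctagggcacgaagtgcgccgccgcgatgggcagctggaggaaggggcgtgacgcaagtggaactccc
CHEK2: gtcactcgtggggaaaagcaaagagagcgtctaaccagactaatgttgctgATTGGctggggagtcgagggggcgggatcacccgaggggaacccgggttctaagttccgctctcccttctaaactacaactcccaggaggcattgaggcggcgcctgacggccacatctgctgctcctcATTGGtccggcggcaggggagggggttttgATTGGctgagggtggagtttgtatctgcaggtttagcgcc
XRCC3: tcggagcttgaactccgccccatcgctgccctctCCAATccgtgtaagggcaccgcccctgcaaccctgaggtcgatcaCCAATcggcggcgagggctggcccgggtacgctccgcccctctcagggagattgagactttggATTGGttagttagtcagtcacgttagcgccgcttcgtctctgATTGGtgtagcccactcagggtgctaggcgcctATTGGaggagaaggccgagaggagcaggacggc

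CCAAT occurred 3 times before BRIP1, the lowest member, 3 times before CHEK2, the highest, and 5 times before XRCC3, the second highest. It was not in the RBBP8 window. For 30 of the 33 genes a RefSeq start region of 300 bases (250 before and 50 after the start) was at hand, for some of them more than 1. No region was at hand for RAD54B, NBN and FANCI. CCAAT was found for 14 of these 30 genes (46.7%), against 39.7% of 27326 genes with such a region. TTTGAA was found for 4 of 30 (13.3%, against 18.2%), and CACGTG, the E-box that MYC can read, for 3 of 30 (10.0%, against 8.78%). The E2F-type motif TTTCGCGC was in the regions of EXO1 and FANCC (6.67%, against 0.629%). Its variant TTTGGCGC and the motif TTCGAA were in 0 of 30, against 0.794% and 1.82% of genes. EXO1 had a log2 fold change of -0.42 and FANCC 0.13 in the authors' deposited table, so the pair with TTTCGCGC lay on both sides of 0. These are matches of letters on both strands, and binding was not measured.

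The group furthest below 0 was that of BRCA1, BRCA2 and their partners, with a median log2 fold change of -0.47 over 5 genes. All 5 were below 0, beside 48.5% of all genes with a fold change. BRIP1, a helicase that binds BRCA1 (chromosome 17, 59758627 to 59940882 on hg19), had the lowest value in the authors' deposited table, 1.61-fold lower or -0.69 in log2 (implied SE 1.35, implied 95% interval -3.34 to 1.96). It was also one of the least abundant, at 1.79 RPKM. BARD1, the obligate partner of BRCA1 in its ubiquitin ligase (chromosome 2, 215590370 to 215674428), was 1.44-fold lower there, at 5.32 RPKM (log2 -0.53, implied SE 1.14). PALB2, which bridges BRCA1 and BRCA2 (chromosome 16, 23614488 to 23652631), had -0.47 (implied SE 1.15, 4.77 RPKM) in the authors' deposited table. BRCA1 itself (chromosome 17, 41196312 to 41277500) was nearer to 0, at -0.30 (implied SE 0.96, 8.25 RPKM) in the authors' deposited table. BRCA2, which carries the recombinase to the break (chromosome 13, 32889611 to 32973805), had -0.17 there at 0.656 RPKM, under the minimum of 1 RPKM. The order inside the group is not settled by these data, since the 5 values lie between -0.69 and -0.17 and each implied SE is wider than that range.

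The recombinase paralogues, which stabilise the filament on single-stranded DNA, lay close to 0. RAD51C, RAD51D and XRCC2 had log2 fold changes of -0.25, -0.15 and -0.17 in the authors' deposited table, at 9.57, 5.11 and 11.9 RPKM. RAD51B, with the longest span of the members at 910 kb, was the least abundant of all 33, at 0.448 RPKM in the authors' deposited table, with -0.10. XRCC3 (chromosome 14, 104163946 to 104181841), which pairs with RAD51C, stood on the other side of 0 at 0.23 (implied SE 0.99, 6.54 RPKM) in the authors' deposited table. XRCC3 overlaps 3943 bases of KLC1 on the opposite strand, which had the same 0.23 at 11.2 RPKM in the authors' deposited table. XRCC3 also shares 1543 bases with AL049840.1 on the opposite strand, at -0.31 and 1.01 RPKM there. The strand setting of the counting is not given, so reads of the overlapping part cannot be told apart; 12 of the 33 members share some of their span with a gene of at least 1 RPKM. The translocases that remodel the filament both lay below 0, RAD54L at -0.20 (10.7 RPKM) and RAD54B at -0.41 (1.76 RPKM) in the authors' deposited table. RAD54L shares 17278 bases of its span of 30.8 kb with LRRC41 on the opposite strand, at 0.14 and 6.78 RPKM there.

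Among the genes of break sensing and end resection all 6 were below 0, beside 49.0% of the genes of at least 1 RPKM. Transcripts of these 6 are low in GC content, with a median of 40.2%. In the 2 lowest of 5 equal groups of genes by GC content, 75.5% and 68.6% of all genes were below 0. With the trend with level, length and GC content removed, the median of the 6 moved from -0.22 to -0.07, and MRE11A lay above 0. The 3 subunits of the MRN complex were nearest to 0, with MRE11A at -0.02, NBN at -0.15 and RAD50 at -0.16 in the authors' deposited table, at 4.40, 8.41 and 5.66 RPKM. RBBP8, EXO1 and BLM lay lower. RBBP8, which encodes CtIP, the starter of end resection (chromosome 18, 20378224 to 20606451), stood at -0.57 in the authors' deposited table, or 1.49-fold lower (implied SE 1.01, 10.9 RPKM). RBBP8 shares 135504 bases of its span with RP11-739L10.1 on the opposite strand, at -0.73 and 1.48 RPKM in the authors' deposited table. It also shares 109461 bases with RP11-370A5.1, at -1.40 and 0.934 RPKM there; both were named after their values were seen, and their part in the RBBP8 value was not tested. EXO1, the long-range nuclease (chromosome 1, 242011269 to 242058450), had -0.42 (implied SE 0.92) at 16.8 RPKM in the authors' deposited table. BLM, the helicase that works with it in resection and untangles joined molecules, had -0.29 (implied SE 1.13, 4.92 RPKM) there. The gap between any MRN gene and RBBP8, EXO1 or BLM was smaller than the implied SE of either gene. This order is described without a test.

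The Fanconi core complex was spread on both sides of 0, with a median of -0.16. Counting its ubiquitin-conjugating enzyme UBE2T, 6 of 9 genes were below 0, beside 48.5% of all genes with a fold change. FANCL, the catalytic subunit of the ligase (chromosome 2, 58386378 to 58468507), was the lowest at -0.53 in the authors' deposited table, or 1.44-fold lower (implied SE 1.22, 8.24 RPKM). FANCF, FANCE and FANCG, structural subunits, had -0.24, -0.16 and -0.16 in the authors' deposited table, at 11.5, 9.68 and 11.0 RPKM. FANCA, FANCB and FANCC, also of the core, had 0.11, 0.10 and 0.13 there, at 6.46, 1.08 and 3.96 RPKM. FANCM, the DNA-binding anchor, had -0.04 in the authors' deposited table at 0.914 RPKM. UBE2T (chromosome 1, 202300785 to 202311108) was the most abundant of the 33 genes, at 30.2 RPKM, with -0.18 in the authors' deposited table (implied SE 1.04). FANCL and FANCB, which sit in one catalytic module, were thus at -0.53 and 0.10, with implied SEs of 1.22 and 1.80. The substrates also lay apart. In the authors' deposited table FANCI (chromosome 15, 89787180 to 89860492) had -0.43 at 16.99 RPKM and the smallest implied SE of the members, 0.83; it shares 959 bases with POLG on the opposite strand. FANCD2, its partner in the clamp, had -0.04 (implied SE 0.97, 6.03 RPKM) in the authors' deposited table. FANCD2 has a pseudogene, FANCD2P2, listed at 0 RPKM.

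The checkpoint kinases included the highest member. CHEK2 (chromosome 22, 29083731 to 29138410), the kinase that ATM activates, stood at 0.40 in the authors' deposited table, or 1.32-fold higher (implied SE 1.09, implied 95% interval -1.74 to 2.53, 5.78 RPKM). CHEK2 has pseudogene copies, of which CHEK2P2, CHEK2P3, CHEK2P4 and CHEK2P5 were each listed at 0 RPKM in the authors' deposited table. How reads that match several copies were treated is not given, so its value is uncertain. ATM itself had -0.26 at 1.15 RPKM in the authors' deposited table (implied SE 1.19). On the ATR side, ATR had -0.07 (2.66 RPKM) and CHEK1, its effector kinase, -0.21 (implied SE 0.97, 9.42 RPKM) in the authors' deposited table. Each kinase pair therefore lay within 1 implied SE of its partner.

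Levels per transcript length spread over 67.4-fold, with a median of 6.03 RPKM, near the 6.76 RPKM median of the genes with at least 1 RPKM. At 10 RPKM or more in the authors' deposited table were 8 genes, in falling order UBE2T, FANCI, EXO1, XRCC2, FANCF, FANCG, RBBP8 and RAD54L. Another 16 lay between 4 and 10 RPKM, and 9 under 4 RPKM, among them BRCA2, RAD51B and FANCM under 1. The less abundant genes had larger implied SEs, with a median of 1.53 for the 9 genes under 4 RPKM and 1.01 for the 8 at 10 RPKM or more. Over all genes of at least 1 RPKM the median implied SE fell likewise. It was 1.72 in the lowest of 5 equal groups by level and 0.94 in the highest. Across the 30 genes with at least 1 RPKM, Spearman's rho of level and implied SE was -0.63, as a description over genes of the same libraries. Spearman's rho of level and fold change was -0.17 over the same genes.

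**Figure D2:**
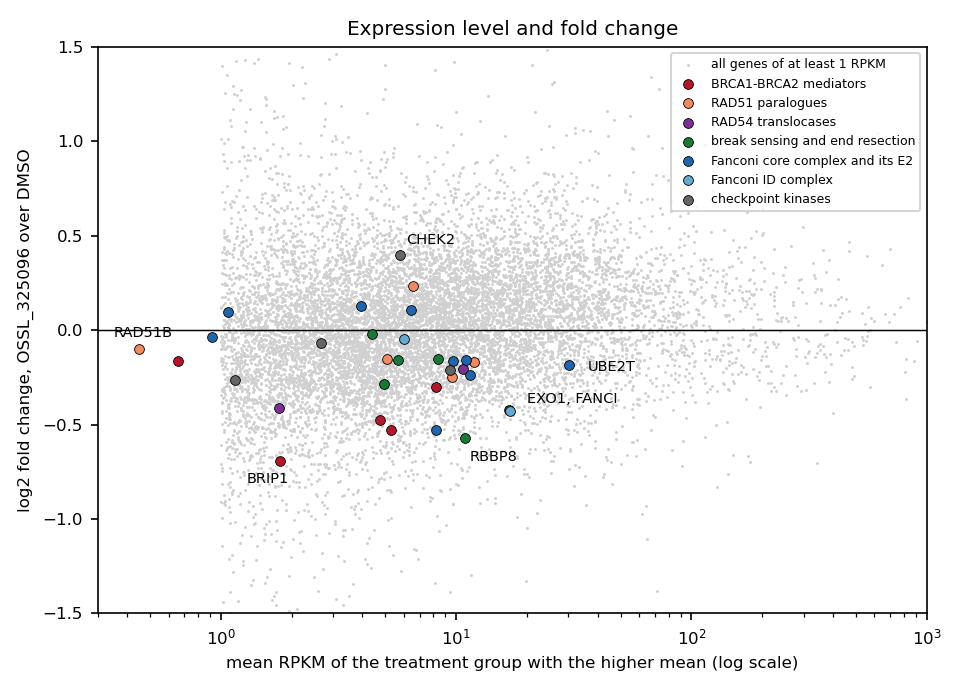
Log2 fold change (vertical axis) against the mean RPKM of the higher treatment group (horizontal axis, log scale), with the 33 members coloured by role over all genes of at least 1 RPKM in grey; genes beyond the axes are not drawn. The members run from 0.448 RPKM (RAD51B) to 30.2 RPKM (UBE2T), and 28 of the 33 points lie below 0.

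By sign, the rest of the pathway lay nearer to an even split. From the lists of other recombination, Fanconi and checkpoint genes, 76 of 77 had at least 1 RPKM; 40 were below 0 and 36 above, with a median of -0.03. Of these 76, 5 were at least 1.5-fold lower and 0 at least 1.5-fold higher, beside 4.95% of the 11324 genes in each direction. The other recombination genes held 3 of those 5, beside 1 of the 30 members. At least 20% lower were 10 of 37 other recombination genes, 2 of 15 other Fanconi genes and 5 of 24 other checkpoint genes. The members had 8 of 30, and the 11324 genes 15.2%. At least 25% higher were 1, 2 and 4 genes of these 3 lists, beside 1 member and 16.4% of the 11324 genes. By size, the other recombination genes thus lay close to the members. None of the 76 passed the authors' test. The other recombination genes were below 0 in 22 of 37 cases (median -0.07). The furthest were FIGNL1, an AAA ATPase that acts on the recombinase, at -0.84 (implied SE 1.02), RAD51AP1, which helps strand invasion, at -0.76, and FAM175A, the scaffold of the BRCA1-A complex, at -0.59 in the authors' deposited table. The other Fanconi genes were below 0 in 6 of 15 cases (median 0.01). USP1 and WDR48, the enzyme and cofactor that strip ubiquitin from FANCD2, were at -0.57 and -0.50, and STRA13, a partner of FANCM, at 0.58 in the authors' deposited table. Other checkpoint genes split evenly, 12 of 24 below 0 (median 0.01). CLSPN, the adaptor through which ATR activates CHEK1, was at -0.83 and PPM1D, a phosphatase that ends the signal, at -0.61, while ATRIP, the partner of ATR, was at 0.58 in the authors' deposited table. The difference between the members and these genes was not tested.

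Other repair pathways gave medians near 0. Base excision repair genes were below 0 in 5 of 15 cases (median 0.07), nucleotide excision repair genes in 7 of 15 (median 0.00), mismatch repair genes in 4 of 7 (median -0.08) and end joining genes in 7 of 10 (median -0.10). LIG4, the ligase of end joining, was at -0.47 and PRKDC, its DNA-dependent kinase, at -0.26 in the authors' deposited table. DNA replication genes, which are expressed in the same phase of the cell cycle as many members, were below 0 in 25 of 28 cases, with a median of -0.29. Mitosis genes stood on the other side, with 3 of 20 below 0 and a median of 0.40. Members, replication genes and mitosis genes come from the same 4 libraries, and a part of the cell cycle in the members' values was not tested.

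**Figure D3:**
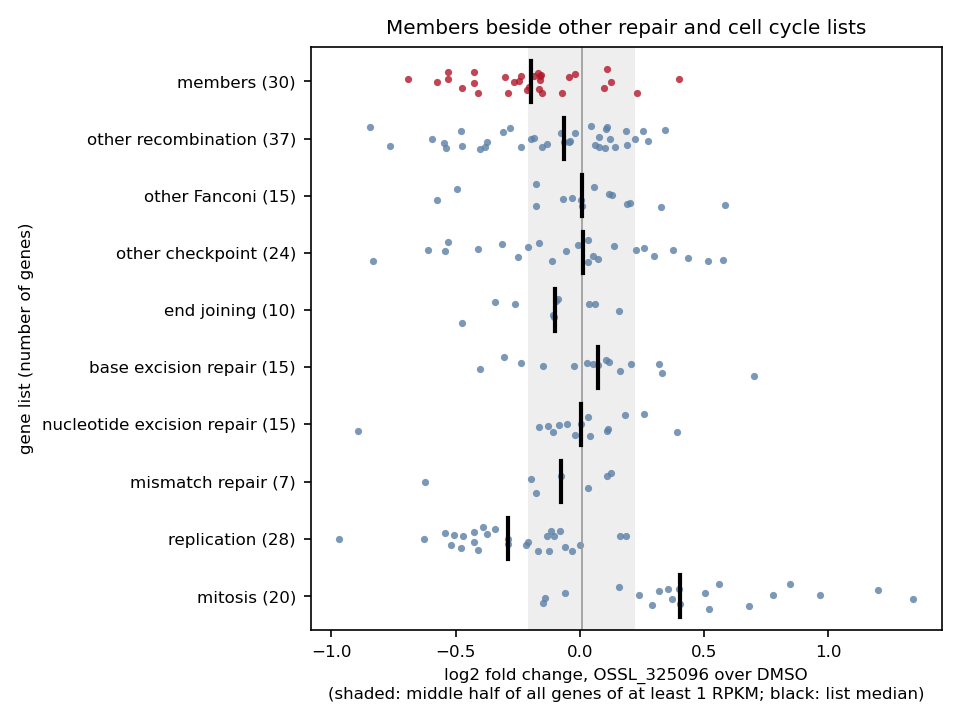
Log2 fold changes (horizontal axis) of single genes of at least 1 RPKM in the members (red) and 9 other lists (blue), with list medians in black and the middle range of all genes, from -0.21 to 0.22, shaded. The member median of -0.19 lies between that of replication genes (-0.29) and those of the other repair lists, and mitosis genes centre on 0.40.

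Most members had a low GC content. GC content moved with the fold change across the table (Spearman's rho 0.47 over 11104 genes and 0.31 over 30 members, as a description). Their transcripts held a median of 43.0% G and C, from 36.2% (BRCA2) to 60.6% (XRCC3), where the genes with at least 1 RPKM had 50.2%. Of the 30 members with at least 1 RPKM, 24 were in the 2 lowest of 5 equal groups of genes by GC content. In those groups 75.5% and 68.6% of all genes were below 0, with medians of -0.17 and -0.12. In the highest group 21.7% of all genes were below 0, with a median of 0.23, and XRCC3, the only member there, had 0.23. Weighted by the groups the members are in, 64.1% of all genes were below 0, beside 83.3% of the 30 members. Against the median of its own GC group, 21 of the 30 members were lower, and the median distance was -0.11. This included 6 of 6 members in the 3 higher groups: RAD54L, RAD51D, FANCE, FANCG, FANCA and XRCC3, though FANCA and XRCC3 by a distance of -0.02 and -0.0015.

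**Figure D4:**
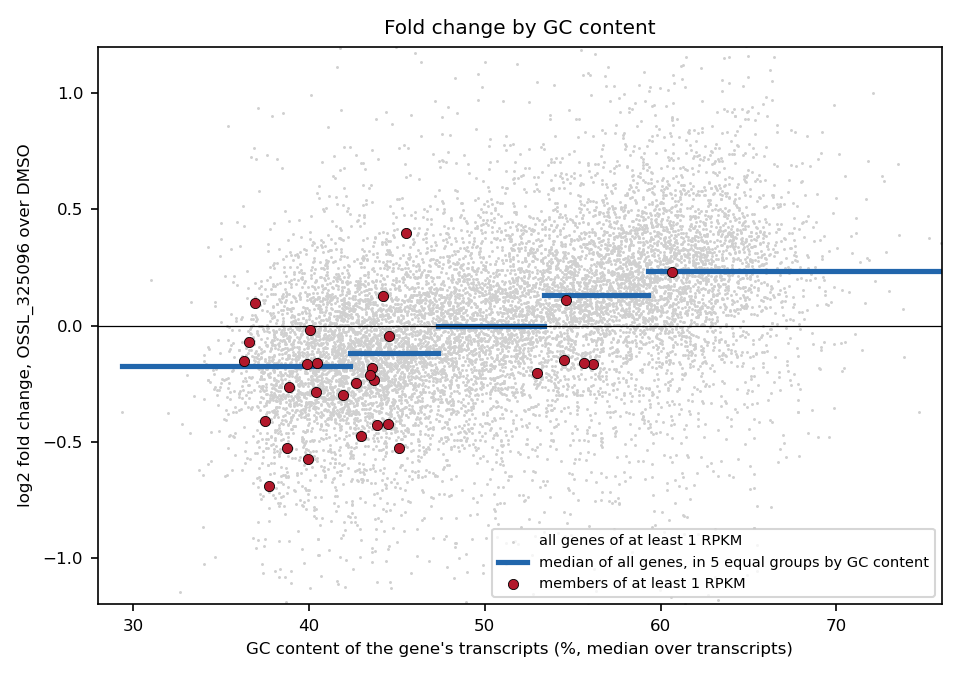
Log2 fold change (vertical axis) against the GC content of a gene's transcripts (horizontal axis, %), for all genes of at least 1 RPKM (grey) and 30 members (red); blue lines are the medians of all genes in the 5 GC groups. The medians run from -0.17 to 0.23, and 24 members lie in the 2 lowest groups.

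When the trend with level, transcript length and GC content was removed by a regression over 11104 genes, 22 of the 30 members stayed below 0, beside 49.8% of genes, and their median moved from -0.19 to -0.12. The lowest were BRIP1 at -0.46, BARD1 at -0.42, RBBP8 at -0.41, PALB2 at -0.36, FANCL at -0.35, FANCI at -0.34 and EXO1 at -0.34. CHEK2 moved from 0.40 to 0.50 and FANCB from 0.10 to 0.37. ATR, FANCD2 and MRE11A crossed 0, to 0.15, 0.05 and 0.18, and ATM, RAD50 and NBN came to lie at -0.01, -0.01 and -0.003. After the same step the end joining genes lay close to the members, with a median of -0.11 and 8 of 10 below 0. The median of the replication genes was -0.27 and that of the mitosis genes 0.51, while the other recombination, Fanconi and checkpoint lists had -0.06, -0.004 and -0.04. Base excision, nucleotide excision and mismatch repair genes had -0.05, 0.10 and 0.03.

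**Figure D5:**
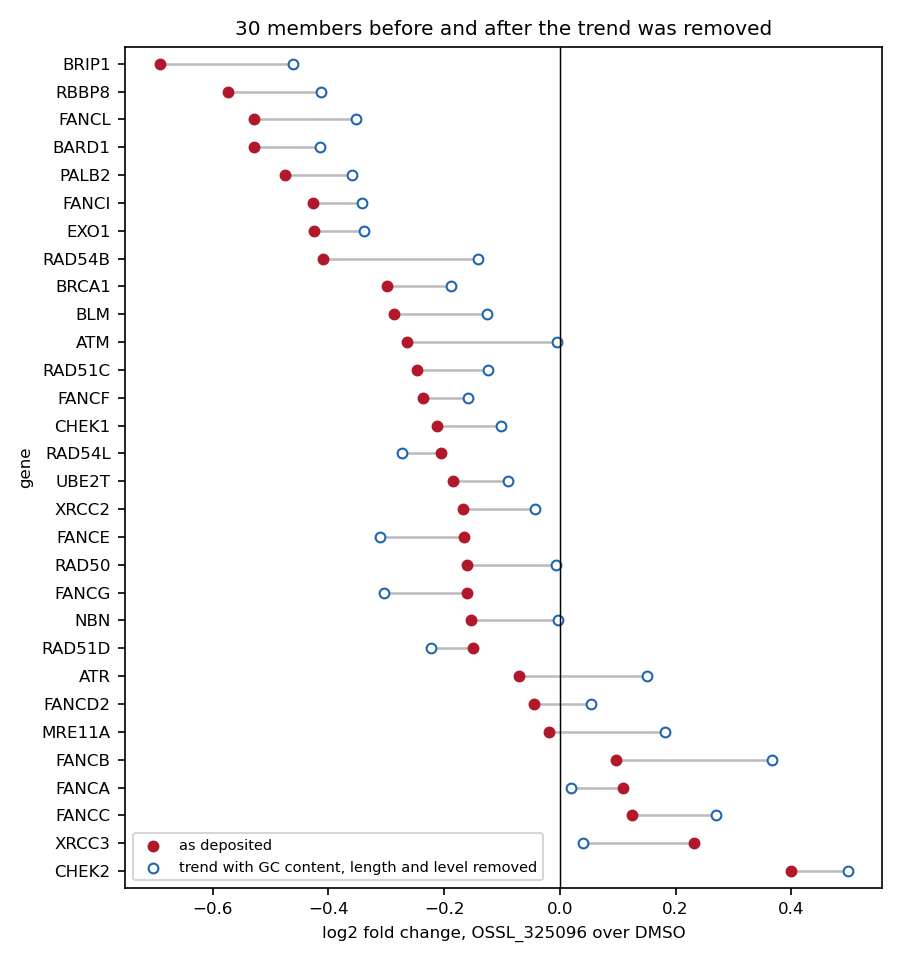
Log2 fold change of the 30 members of at least 1 RPKM (horizontal axis) as deposited (red) and after removal of the trend with level, transcript length and GC content (open blue). Removal takes 3 members across 0 (ATR, FANCD2 and MRE11A) and leaves BRIP1 lowest at -0.46 and CHEK2 highest at 0.50.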

How the data were processed

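The 4 libraries were made from mRNA captured on oligo(dT) beads and primed with random hexamers, per the labels' protocols. Reads were mapped to hg19 and expression was computed in Biomedical Genomics Workbench 5, per the labels (series design text); the counting rule, strand setting, annotation version and statistical model are not stated there. The authors deposited the RPKM of the higher group mean, a log2 fold change, the same fold as a signed score, and unadjusted, false discovery rate and Bonferroni p-values. The planned limma fit needs single libraries, of which the table has 0 columns, so the deposited values took its place.

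Genes with at least 1 RPKM (11324) were kept. Benjamini-Hochberg values recomputed over them were 0.9999 or more. The implied SE is exact only if the deposited p-value rests on a normal quantile, taken in both directions. For each gene, GC content and length were the medians of its GENCODE 44 transcripts, mapped to GRCh37, which covered 98.1% of the genes kept; the regression had terms up to degree 3 and explained 15.8% of the variance. Coordinates are hg19 as deposited, and all 33 members overlapped their GENCODE entry. RefSeq start regions were matched by symbol, and MRE11A by its current symbol MRE11. The Benjamini-Hochberg, implied SE and trend removal calculations were tested on simulated data, and the others were not. The simulated p-values were normal by design, so this does not test whether the deposited p-values are. The 2 libraries of a treatment are different lines, so the spread within a treatment holds the difference between lines; whether the authors' test paired the lines is not stated. The members and lists were chosen with earlier results of these data known. All members are named, and up to 3 genes of each other list with the largest fold change; other named genes were chosen after their values were seen. Python 3.11.15, pandas 2.3.3, numpy 2.4.6 and scipy 1.17.1 were used.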

Additional observations from a re-analysis of the deposited data

How the results depend on the processing

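With no minimum on RPKM, or with the fold changes centred on the median of all genes, the median (-0.17 and -0.20), the count below 0 (28 of 33 and 25 of 30) and the counts past 1.5-fold stayed within 1.5 times of those reported. With a minimum of 5 RPKM, 18 of 21 members were below 0 and 0 were at least 1.5-fold lower, since BRIP1 lies under that minimum. After removal of the trend with level, length and GC content, the median was -0.12 and 0 members were at least 1.5-fold lower. Relative to each gene's own GC group, an alternative chosen after seeing the data, the median was -0.11, again with 0 members at least 1.5-fold lower. The smaller size (20% lower or 25% higher) gave 8 lower and 1 higher, and one of 2-fold gave 0 lower. Without the 12 members that share their span with another gene of at least 1 RPKM, also chosen after seeing the data, 16 of 18 were below 0 with a median of -0.18. No paired analysis was possible because the table holds no values of single libraries; for the same reason fits without 1 line, other pseudocounts and other scalings were not run. The depth is unknown.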

Other observations

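Several members start back to back with another gene on the opposite strand. Of the 30 members with at least 1 RPKM, 9 had such a neighbour of at least 1 RPKM with its start within 1000 bases, beside 18.96% of the 11324 genes. They were ATM, BRCA1, CHEK2, FANCB, FANCD2, FANCF, MRE11A, PALB2 and XRCC3. The neighbours are named here after their values were seen. In 7 of the 10 pairs both genes lay on the same side of 0, beside 60.2% of the 1099 such pairs in the table. In the authors' deposited table ATM had -0.26 and its neighbour NPAT, a regulator of histone genes, -0.79. BRCA1 had -0.30 and the noncoding gene NBR2 -0.54 there. CHEK2, the highest member at 0.40, lay beside HSCB, an iron-sulfur cluster co-chaperone, at 0.16 in the authors' deposited table. PALB2, at -0.47, lay beside the dynactin gene DCTN5, at 0.05 there. The spans of ATM and NPAT share 159 bases and those of CHEK2 and HSCB 392, where reads cannot be told apart without the strand.

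POLG, the mitochondrial DNA polymerase gene, shares 959 bases with the opposite strand of FANCI, the member with the smallest implied SE. In the authors' deposited table FANCI had -0.43 at 16.99 RPKM and POLG 0.47 at 16.9 RPKM. These means belong to different treatments, DMSO for FANCI and OSSL_325096 for POLG, so they do not compare levels within a treatment. This pair, named after its values were seen, had fold changes of opposite sign.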
